A study of Mus musculus with 6 samples.

Results

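Histones are the proteins around which DNA is wound, and 91 genes named for them were followed in mouse embryonic stem cells grown with and without inhibitors of BMP signalling. Members were taken by symbol alone from the 53465 genes counted. Symbols starting with Hist1, Hist2, Hist3 or Hist4 gave 70 replication-dependent genes, of which 67 are annotated as protein-coding and 3 as pseudogenes. Symbols starting with H2af, H3f3 or H1f gave 21 genes named for histone variants, of which 15 are protein-coding, 5 are pseudogenes and 1 is an antisense transcript. Together the members are 91 of 53465 genes.

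The 6 libraries came from Royan B20, an established mouse embryonic stem cell line. In the group labelled R2i_BMPi, called BMP-inhibited here, 3 libraries came from cells grown with 250 nM noggin, a secreted antagonist of BMP ligands, and 5 µM dorsomorphin, an inhibitor of BMP type I receptors. The other 3 libraries, labelled R2i_control, came from cells without these agents. All 6 shared gelatin-coated plates (0.1%), 7 passages in R2i medium with LIF, 1 µM of the MEK inhibitor that the labels spell PD0329501, and 10 µM of the TGF-beta receptor inhibitor SB431542. Control cells were therefore not free of inhibitors, and noggin and dorsomorphin were not given separately. Per the labels these are biological replicates, with no word on what was replicated, so p-values measure the spread between these libraries. Messenger RNA was captured with poly-T beads and sequenced after a strand-marking library preparation.

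A nucleosome holds DNA around a core of the histones H2A, H2B, H3 and H4, and the linker histone H1 binds where the DNA enters and leaves. Replication-dependent genes supply the bulk of these proteins during DNA synthesis. They are mostly clustered and without introns, and most of their mRNA ends in a conserved stem-loop rather than a poly(A) tail. The stem-loop is bound by the protein SLBP. Variant histones such as H3.3, H2A.Z and macroH2A are made outside DNA synthesis as well, mostly from mRNA with a poly(A) tail, and are placed in chromatin by dedicated chaperones. In embryonic stem cells, which divide rapidly and spend much of the cycle in DNA synthesis, histone supply is high. A poly-T capture selects for the polyadenylated part of the replication-dependent mRNA, so the counts below are not of all such mRNA. How much of them came from mRNA without a poly(A) tail was not tested.

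The stem-loop could be read in the transcripts annotated by GENCODE M21 on GRCm38. The consensus of the histone 3′ stem-loop, 16 bases long, was found in a transcript of 86 of 55450 annotated genes, and 47 of these were members. Of the 47, 46 were replication-dependent and 1 was the variant gene H2afx. The stem-loops shown are those of the members on which the results turn, with the 16 bases in capitals and 5 bases on either side, written as DNA on the strand of the gene.
Hist1h4i: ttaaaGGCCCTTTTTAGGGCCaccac
Hist1h1c: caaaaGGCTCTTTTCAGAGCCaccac
Hist1h3c: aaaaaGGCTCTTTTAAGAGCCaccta
Hist1h2ae: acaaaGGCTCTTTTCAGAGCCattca
Hist1h4b: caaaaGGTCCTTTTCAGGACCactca
Hist3h2a: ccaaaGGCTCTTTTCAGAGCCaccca
H2afx: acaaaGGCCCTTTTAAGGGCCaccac

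These lie in the 3′ untranslated regions at chr13:22040961-22040986 on the minus strand for Hist1h4i, chr13:23739507-23739532 on the plus strand for Hist1h1c and chr13:23745042-23745067 on the minus strand for Hist1h3c. Those of Hist1h2ae and Hist1h4b lie at chr13:23570663-23570688 on the minus strand and chr13:23757361-23757386 on the plus strand. Those of Hist3h2a and H2afx lie at chr11:58955167-58955192 and chr9:44335235-44335260, both on the plus strand. The most frequent form, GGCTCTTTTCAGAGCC, was carried by 26 members. The form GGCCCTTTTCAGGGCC was carried by 7 members, all of them H4 genes. Annotated transcripts of 21 protein-coding replication-dependent genes held no match. For 15 of these 21 the annotated exon length is a multiple of 3, as in a gene model that stops at the coding sequence.

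Gene counts totalled 31743968, 31474666 and 33774524 in the BMP-inhibited libraries, against 33507205, 35322844 and 32720441 in the control libraries. Replicates were less alike in the BMP-inhibited group, where the chi-square of 2 libraries averaged 8.32 to 10.86 over genes, against 2.33 to 3.05 in the control group. The embryonic stem cell markers Pou5f1, Sox2 and Nanog averaged 887, 374 and 640 CPM (counts relative to library size, scaled with TMM factors) in BMP-inhibited cells and 825, 446 and 887 CPM in control cells. Of 15951 genes tested with edgeR's quasi-likelihood F test, 64.2% (10236) were called at an adjusted p of 0.05. BMP-inhibited cells had 5180 of them at a higher level (32.5% of all tested) and 5056 at a lower level (31.7%). The median log2 fold change over all genes tested was -0.0031.

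Summed over all 70 genes, replication-dependent histone mRNA was higher in BMP-inhibited cells, while summed variant histone mRNA was lower. The replication-dependent sum held 2491, 2513 and 2641 counts in BMP-inhibited libraries, against 1651, 1795 and 1619 counts in control libraries. As TMM-scaled CPM this was 80.5 ± 0.139 in BMP-inhibited cells and 48.9 ± 0.607 in control cells (SD, n = 3 each), a difference of 0.72 on the log2 scale or 1.65-fold. The groups did not overlap (exact permutation test, two-sided p = 0.1, the smallest that 3 against 3 libraries allow). Because every member enters the sum whatever its level, no filter on low counts chose what was added. In bulk RNA, more cells of one kind and more mRNA per cell cannot be told apart.

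The variant sum was 1928, 2083 and 2020 CPM in BMP-inhibited libraries, against 2490, 2460 and 2528 CPM in control libraries. The log2 difference was -0.31, and again the groups did not overlap (exact permutation test, two-sided p = 0.1). Most histone reads therefore came from variant genes in either group. Replication-dependent genes held 4.01%, 3.73% and 3.83% of all histone counts in BMP-inhibited libraries, against 1.90%, 1.97% and 1.89% in control libraries. Every BMP-inhibited library had a larger replication-dependent share than every control library.

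All 5 classes of replication-dependent histone had a higher sum in BMP-inhibited cells, and for none of them did the libraries of the groups overlap. Of all single genes tested, 68.6% were so separated, 34.5% higher and 34.1% lower. The 6 linker H1 genes summed to 17.4 ± 0.776 CPM in BMP-inhibited cells and 8.78 ± 0.310 CPM in control cells (SD, n = 3 each), a log2 difference of 0.99. The 20 H2A genes summed to 8.44 ± 1.32 CPM in BMP-inhibited cells and 5.56 ± 0.199 CPM in control cells, a log2 difference of 0.59. The 19 H2B genes, whose products pair with H2A before they enter the nucleosome, summed to 19.9 ± 1.17 CPM in BMP-inhibited cells and 12.8 ± 0.830 CPM in control cells, a log2 difference of 0.63. The 12 H3 genes summed to 14.7 ± 1.45 CPM in BMP-inhibited cells and 9.36 ± 1.07 CPM in control cells, a log2 difference of 0.65. The 13 H4 genes summed to 20.1 ± 1.72 CPM in BMP-inhibited cells and 12.4 ± 0.442 CPM in control cells, a log2 difference of 0.70. Differences between the classes were not tested.

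**Figure D1:**
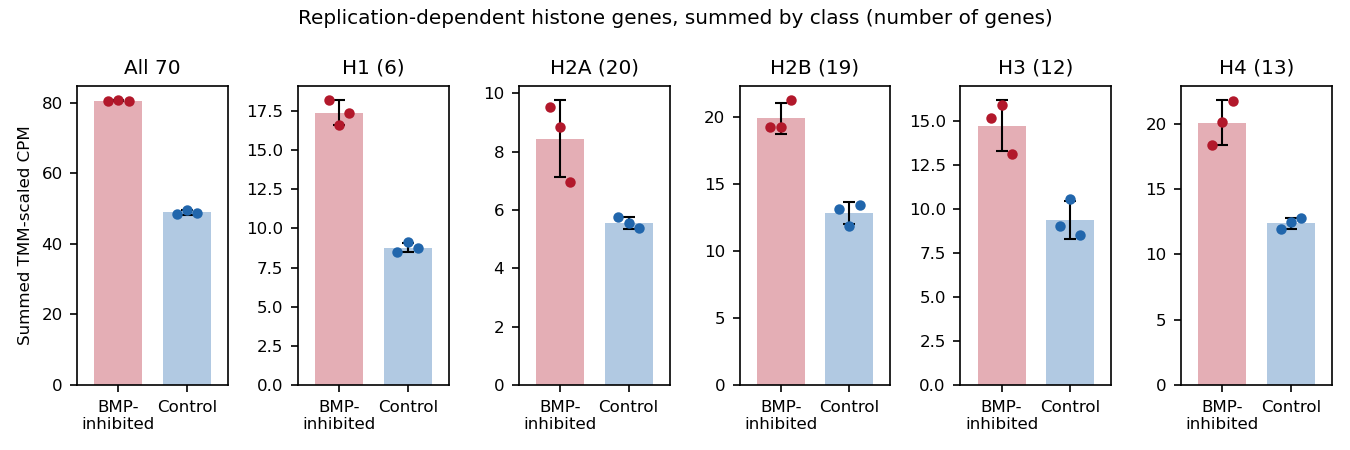
Summed TMM-scaled CPM (vertical axis, each panel from 0) of all 70 replication-dependent histone genes and of the H1, H2A, H2B, H3 and H4 classes, in BMP-inhibited (red, left) and control (blue, right) libraries. Points are libraries, bars the mean and error bars the SD over 3 libraries. For all 70 genes the BMP-inhibited libraries lie at 80.4 to 80.7 CPM and the control libraries at 48.3 to 49.5 CPM.

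Gene by gene, 45 of the 70 replication-dependent genes passed the filter on low counts. Of these 45, 18 rose and 2 fell in BMP-inhibited cells, and 25 did not pass the test. That is 40% higher and 4.44% lower, beside 32.5% and 31.7% over all genes tested. The median log2 fold change of the 45 was 0.70, with a range from -2.20 to 2.14 and a median standard error of 0.349. Libraries of the groups did not overlap for 22 genes higher and 2 lower, where 68.6% of all genes tested were so separated, 34.5% higher and 34.1% lower. The 45 are not all members. The filter asks for 0.302 CPM in any 3 libraries. Of the 45, 11 reached that level in all 3 BMP-inhibited libraries but not in all 3 control libraries. Such genes are said here to pass only through the BMP-inhibited libraries, and the reverse only through the control libraries. Among the 18 that rose were 4 of the 11. Of the 29 that reached it in all 3 libraries of both groups, 14 rose and 1 fell. Over all 45 the share higher (40%) was thus not far from the 32.5% of all genes, while falls were few. Among the 29 the share higher was 48.3% and the share lower 3.45%. No test of the list was made.

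**Figure D2:**
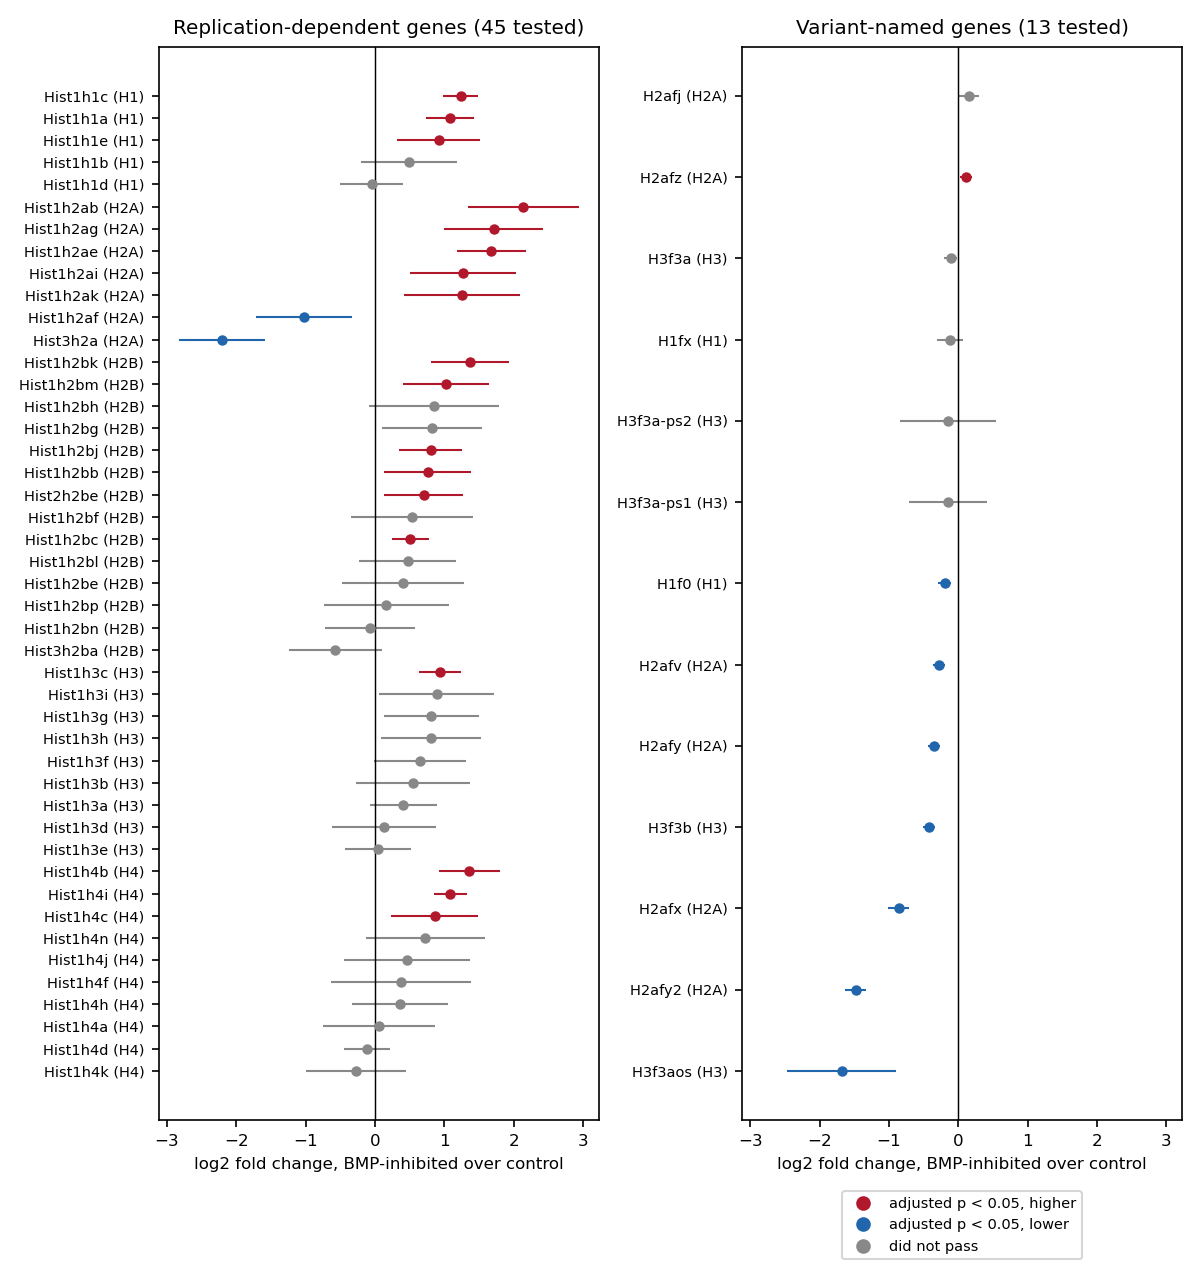
Log2 fold change, BMP-inhibited over control (horizontal axis), of the 45 replication-dependent genes tested (left panel, by class) and the 13 variant-named genes tested (right panel). Points are edgeR estimates with 95% intervals, coloured by whether the adjusted p was under 0.05. On the left 18 genes are higher and 2 lower, and on the right 1 is higher and 7 are lower.

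The linker histone genes included some of the most abundant replication-dependent transcripts. Hist1h1c had 250, 242 and 277 counts in BMP-inhibited libraries, against 127, 122 and 106 counts in control libraries. Its level was 8.09 ± 0.334 CPM in BMP-inhibited cells and 3.43 ± 0.265 CPM in control cells (SD, n = 3 each), with a log2 fold change of 1.24 (SE 0.13, edgeR adjusted p = 5.39e-07). Every BMP-inhibited library stood above every control library. The gene lies at chr13:23738808-23740367, and its annotated transcript runs 840 bases past the stem-loop. Hist1h1a had 183, 134 and 167 counts in BMP-inhibited libraries, against 72, 84 and 93 in control libraries, and rose by 1.08 (SE 0.17, edgeR adjusted p = 5.6e-05). Both genes encode somatic subtypes of H1. Hist1h1e, another somatic subtype whose annotated exons overlap those of Hist1h2be, rose by 0.92, but without BMP-inhibited replicate 2 its log2 fold change was 0.60 and without control replicate 2 it was 0.88, and neither passed. Hist1h1b and Hist1h1d did not pass, at 0.49 and -0.04. The testis-specific linker gene Hist1h1t was below the filter, with 21, 9 and 12 counts in BMP-inhibited libraries and 0, 2 and 0 in control libraries.

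Of 20 H2A genes 7 were tested, and 5 rose and 2 fell, beside 32.5% higher and 31.7% lower over all genes. Of the 5 that rose, Hist1h2ab, Hist1h2ag, Hist1h2ai and Hist1h2ak passed the filter only through the BMP-inhibited libraries, and Hist3h2a, which fell, only through the control libraries. Hist1h2ab reached the cutoff in 0 control libraries, and the others in 2 libraries of the group where they were lower. Levels near the cutoff thus bear on which genes were tested, so the count is a description. Hist1h2ab had 35, 28 and 26 counts in BMP-inhibited libraries, against 10, 4 and 8 in control libraries, with a log2 fold change of 2.14 (SE 0.41, edgeR adjusted p = 0.000262). Hist1h2ag had 42, 47 and 40 counts in BMP-inhibited libraries, against 21, 16 and 6 in control libraries, with a log2 fold change of 1.72 (SE 0.37, edgeR adjusted p = 0.000694). Hist1h2ae had 75, 67 and 76 counts in BMP-inhibited libraries, against 29, 20 and 25 in control libraries, with a log2 fold change of 1.68 (SE 0.25, edgeR adjusted p = 2.54e-05). In all 3 genes the groups were separate. Hist1h2ai rose by 1.27 (SE 0.39), and without control replicate 3 it had 1.03 and did not pass. Hist1h2ak rose by 1.26 (SE 0.42) with overlapping groups, and it did not pass without control replicate 1 (0.97), control replicate 2 (1.15) or BMP-inhibited replicate 1 (1.03). These genes encode near-identical canonical H2A proteins.

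The 2 falls were also H2A genes. Hist3h2a, a canonical H2A gene outside the large cluster, at chr11:58954685-58956830, had 17, 10 and 9 counts in BMP-inhibited libraries, against 68, 56 and 57 in control libraries. That was 0.381 ± 0.147 CPM in BMP-inhibited cells and 1.75 ± 0.224 CPM in control cells (SD, n = 3 each), a log2 fold change of -2.20 (SE 0.32, edgeR adjusted p = 1.85e-05). All BMP-inhibited libraries lay below all control libraries, and the gene also overlaps Trim17 on its own strand. Hist1h2af had 10, 17 and 15 counts in BMP-inhibited libraries, against 22, 37 and 34 in control libraries, a log2 fold change of -1.02 (SE 0.35, edgeR adjusted p = 0.0196). It did not pass without control replicate 2 (-0.92), control replicate 3 (-0.92) or BMP-inhibited replicate 1 (-0.84). All 7 tested H2A genes overlap an annotated antisense gene, and the strand setting of the counting is not known. The overlap could therefore add reads to their counts or take reads from them. Among the 35 tested replication-dependent genes with no overlapping gene, 11 rose (31.4%) and 0 fell by the same test. Over all genes tested 32.5% were higher and 31.7% lower, so the share that rose was near that of all genes. The median log2 fold change of the 35 was 0.55, and 6 of them passed the filter only through the BMP-inhibited libraries.

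Of 14 H2B genes tested, 6 rose and 0 fell, beside 32.5% and 31.7% of all genes, and 3 of the 14 passed the filter only through the BMP-inhibited libraries. Hist1h2bc, the most abundant, had 166, 192 and 176 counts in BMP-inhibited libraries, against 135, 134 and 140 in control libraries, a log2 fold change of 0.51 (SE 0.14, edgeR adjusted p = 0.00435). Hist1h2bk had 88, 72 and 100 counts in BMP-inhibited libraries, against 53, 20 and 36 in control libraries, a log2 fold change of 1.37 (SE 0.29, edgeR adjusted p = 0.000644). In both the groups were separate. Hist1h2bj and Hist1h2bm rose by 0.80 and 1.03, the second not without BMP-inhibited replicate 2 (0.76). Hist1h2bb and Hist2h2be, the only tested gene of the chromosome 3 cluster, passed narrowly at 0.76 and 0.70, with adjusted p of 0.0492 and 0.0456 by edgeR. Hist1h2bb lost the call in 10 and Hist2h2be in 13, of 15 alternative settings in which they were tested. Without single libraries the log2 fold change ranged from 0.54 to 0.98 for Hist1h2bb and from 0.49 to 0.89 for Hist2h2be.

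Of 9 H3 genes tested only Hist1h3c passed, although all 9 had a log2 fold change above 0 and in 5 the groups were separate (34.5% of all genes tested were separate and higher). Of the 9, Hist1h3b and Hist1h3i passed the filter only through the BMP-inhibited libraries. Hist1h3c, at chr13:23744973-23745602, had 208, 215 and 194 counts in BMP-inhibited libraries, against 101, 151 and 101 in control libraries, a log2 fold change of 0.94 (SE 0.16, edgeR adjusted p = 7.86e-05). Hist1h3e, also among the 8 most abundant replication-dependent genes, had 72, 60 and 51 counts in BMP-inhibited libraries and 47, 86 and 62 in control libraries. Its groups overlapped and its log2 fold change was 0.04, with a 95% interval from -0.44 to 0.52. The canonical H3 genes encode near-identical proteins.

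Of 10 H4 genes tested, 3 rose and 0 fell, beside 32.5% and 31.7% of all genes. Of the 10, 2 passed the filter only through the BMP-inhibited libraries and 1 only through the control libraries, none of them among those that rose. Hist1h4i was the most abundant of all replication-dependent genes, with 270, 335 and 331 counts in BMP-inhibited libraries, against 155, 156 and 168 in control libraries. Its level was 9.85 ± 1.04 CPM in BMP-inhibited cells and 4.63 ± 0.391 CPM in control cells (SD, n = 3 each), a log2 fold change of 1.09 (SE 0.12, edgeR adjusted p = 1.55e-06). The groups were far apart. Hist1h4b had 85, 78 and 82 counts in BMP-inhibited libraries, against 28, 40 and 36 in control libraries, a log2 fold change of 1.36 (SE 0.22, edgeR adjusted p = 6.37e-05), and it overlaps an antisense gene. Hist1h4c rose by 0.86, and did not pass without control replicate 1 (0.62), control replicate 3 (0.83) or BMP-inhibited replicate 3 (0.75). Hist1h4d, with 86, 80 and 86 counts in BMP-inhibited libraries and 89, 110 and 99 in control libraries, had overlapping groups and a log2 fold change of -0.12, with a 95% interval from -0.45 to 0.22. Hist1h4d and Hist1h4i, which belong to one class and one cluster, thus gave different values, and the difference between them was not tested.

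The 25 replication-dependent genes below the filter held at most 47 counts each over the 6 libraries, and 3 held none. Together they had 258 counts in BMP-inhibited libraries and 167 in control libraries, and 15 of the 25 had more counts in the BMP-inhibited group. They included Hist1h2ba, a testis H2B gene, with 0, 0 and 1 counts in BMP-inhibited libraries and 1, 4 and 2 in control libraries. With no filter on counts, edgeR called 2 of the 25 higher, Hist1h1t with an adjusted p of 1.65e-06 and the pseudogene Hist3h2bb-ps with an adjusted p of 0.0229, the second on 5, 3 and 0 counts in BMP-inhibited libraries and 0 in each control library. It called none of the other 20 with counts.

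Replication-dependent genes lie in a few clusters, with 56 on chromosome 13, 10 on chromosome 3, 3 on chromosome 11 and 1 on chromosome 6. On chromosome 13, 42 were tested, of which 17 rose and 1 fell, beside 32.5% and 31.7% of all genes, with a median log2 fold change of 0.74. Of the 42, 11 passed the filter only through the BMP-inhibited libraries. Genes that rose were spread along the order of the cluster and stood beside genes that did not pass. On chromosome 11, 2 were tested, Hist3h2a at -2.20 and Hist3h2ba at -0.57, the second not passing.

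**Figure D3:**
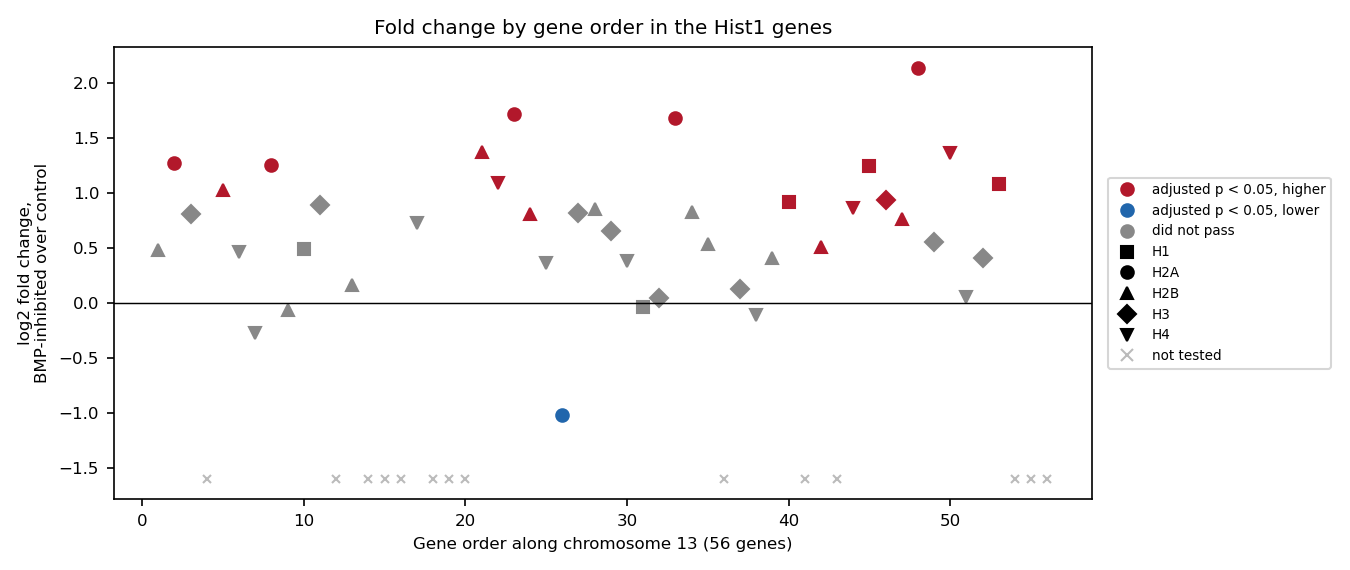
Log2 fold change, BMP-inhibited over control (vertical axis), of the 56 Hist1 genes of chromosome 13 by their order along the chromosome (horizontal axis, rank and not distance). Marker shapes give the class and colours the call, and crosses at the bottom mark the genes not tested. Of the 42 genes tested 17 are higher, and the single lower gene is Hist1h2af at -1.02.

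Many H2A and H2B genes face away from each other across a short shared promoter. There were 14 such pairs with starts within 500 bases, and in 4 both genes were tested. Hist1h2ag and Hist1h2bj, with 270 bases between their starts, both rose, by 1.72 and 0.80 on the log2 scale. In the other 3 pairs the H2A gene rose and the H2B gene did not pass. These were Hist1h2ae and Hist1h2bg at 1.68 and 0.83, Hist1h2ak and Hist1h2bn at 1.26 and -0.07, and Hist1h2ai and Hist1h2bl at 1.27 and 0.48. In each of the 4 pairs the H2A gene had the larger log2 fold change, a difference that was not tested. Hist1h2ag, Hist1h2ak and Hist1h2ai passed the filter only through the BMP-inhibited libraries, and all 4 H2A genes overlap an antisense gene.

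Promoters were taken from RefSeq on GRCm38.p6, 250 bases before to 50 after the start of the gene, and 77 members had an entry. The first one shown serves the pair that rose together, the second the most abundant replication-dependent gene, and the third the variant gene with the most reads. Capitals mark every match, on either strand, to 3 motifs. CCAAT reads as ATTGG on the other strand, the octamer ATTTGCAT reads as ATGCAAAT there, and the box TATAAA is written as TTTATA when it lies on that strand. No matches overlapped in the sequences shown.
Hist1h2ag: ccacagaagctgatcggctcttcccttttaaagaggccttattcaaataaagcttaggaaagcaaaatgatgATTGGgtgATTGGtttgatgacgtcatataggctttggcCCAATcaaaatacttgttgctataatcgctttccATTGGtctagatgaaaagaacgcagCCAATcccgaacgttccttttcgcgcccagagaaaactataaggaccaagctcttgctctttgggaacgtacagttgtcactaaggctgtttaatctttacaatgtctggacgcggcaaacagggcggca
Hist1h4i: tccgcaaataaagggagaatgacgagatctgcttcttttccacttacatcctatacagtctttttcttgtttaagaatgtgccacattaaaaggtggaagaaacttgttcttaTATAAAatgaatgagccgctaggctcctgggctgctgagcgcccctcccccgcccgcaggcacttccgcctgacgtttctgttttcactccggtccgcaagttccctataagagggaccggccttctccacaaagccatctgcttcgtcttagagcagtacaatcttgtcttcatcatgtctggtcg
H3f3b: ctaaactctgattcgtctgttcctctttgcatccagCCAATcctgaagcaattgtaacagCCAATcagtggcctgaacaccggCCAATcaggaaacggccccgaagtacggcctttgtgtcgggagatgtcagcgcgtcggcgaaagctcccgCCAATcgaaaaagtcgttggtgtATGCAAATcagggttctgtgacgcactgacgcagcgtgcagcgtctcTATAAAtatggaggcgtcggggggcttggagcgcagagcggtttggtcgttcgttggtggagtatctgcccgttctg

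These windows lie at chr13:22042900-22043199, chr13:22041313-22041612 and chr11:116024455-116024754, all on the minus strand. CCAAT, the motif bound by the factor NF-Y, was in 54 of 63 replication-dependent promoters (85.7%) and 10 of 15 variant promoters (66.7%), beside 37.4% of all 32851 promoters. It was in every H1, H2A, H2B and H3 promoter but in 3 of 12 H4 promoters (25%). ATTTGCAT, the octamer read by POU factors, was in 7 of 18 H2A promoters and 7 of 17 H2B promoters and in none of the other replication-dependent classes, beside 1.74% of all promoters. TATAAA was in 35 of 63 replication-dependent promoters (55.6%) and 13.6% of all. Among the 15 variant promoters, TATAAA and the octamer were each in 1 (6.67%), the H3f3b promoter shown above. Whether these motifs go with the changes was not tested.

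The annotated 3′ end divided the replication-dependent genes in another way. Genes whose annotation ended within 100 bases of the stem-loop, the usual form, summed to 25.4 ± 0.739 CPM in BMP-inhibited cells and 13.3 ± 0.481 CPM in control cells (SD, n = 3 each), a log2 difference of 0.93. Of 16 tested, 8 rose and 0 fell, beside 32.5% and 31.7% of all genes, and 5 of the 16 passed the filter only through the BMP-inhibited libraries. Genes annotated for more than 100 bases past the stem-loop summed to 35.3 ± 1.44 CPM in BMP-inhibited cells and 22.7 ± 0.136 CPM in control cells, a log2 difference of 0.63. Of 17 tested, 5 rose and 1 fell, and 3 of the 17 passed only through those libraries. Genes with no stem-loop in the annotation summed to 19.8 ± 0.648 CPM in BMP-inhibited cells and 12.9 ± 0.555 CPM in control cells, a log2 difference of 0.62. All 3 sets were higher in every BMP-inhibited library than in any control library, as were 34.5% of all single genes tested. Differences between the sets were not tested.

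Replication-dependent genes resemble each other, and reads with several alignments entered no count. The median protein-coding member had 53.0% of its 50-base windows in no other annotated gene. Among the 27 tested genes with at least 50% such windows, 11 rose (40.7%) and 1 fell (3.7%), with a median log2 fold change of 0.51. Among the 18 below 50%, 7 rose (38.9%) and 1 fell (5.6%), with a median of 0.80. Over all genes tested 32.5% were higher and 31.7% lower, so the shares that rose were not far from that of all genes. The filter was met only through BMP-inhibited libraries by 8 of these 18 and by 3 of the 27, so the medians cannot be set against each other. Values of single genes in the second set, such as Hist1h2ag (21.1% unique) and Hist1h2af (20.3%), rest on fewer distinguishing bases.

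Variant histone genes were tested in 13 of 21 cases, of which 7 fell and 1 rose in BMP-inhibited cells, beside 31.7% lower and 32.5% higher over all genes. The 10 protein-coding ones included 6 that fell. All of the 10 except H2afz, H2afv and H3f3b overlap an annotated antisense gene, which makes their counts uncertain in the same way. The median log2 fold change of the 13 was -0.20. In all 7 that fell the groups were separate, beside 34.1% of all genes tested, and 1 of them, H3f3aos, passed the filter only through the control libraries.

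**Figure D4:**
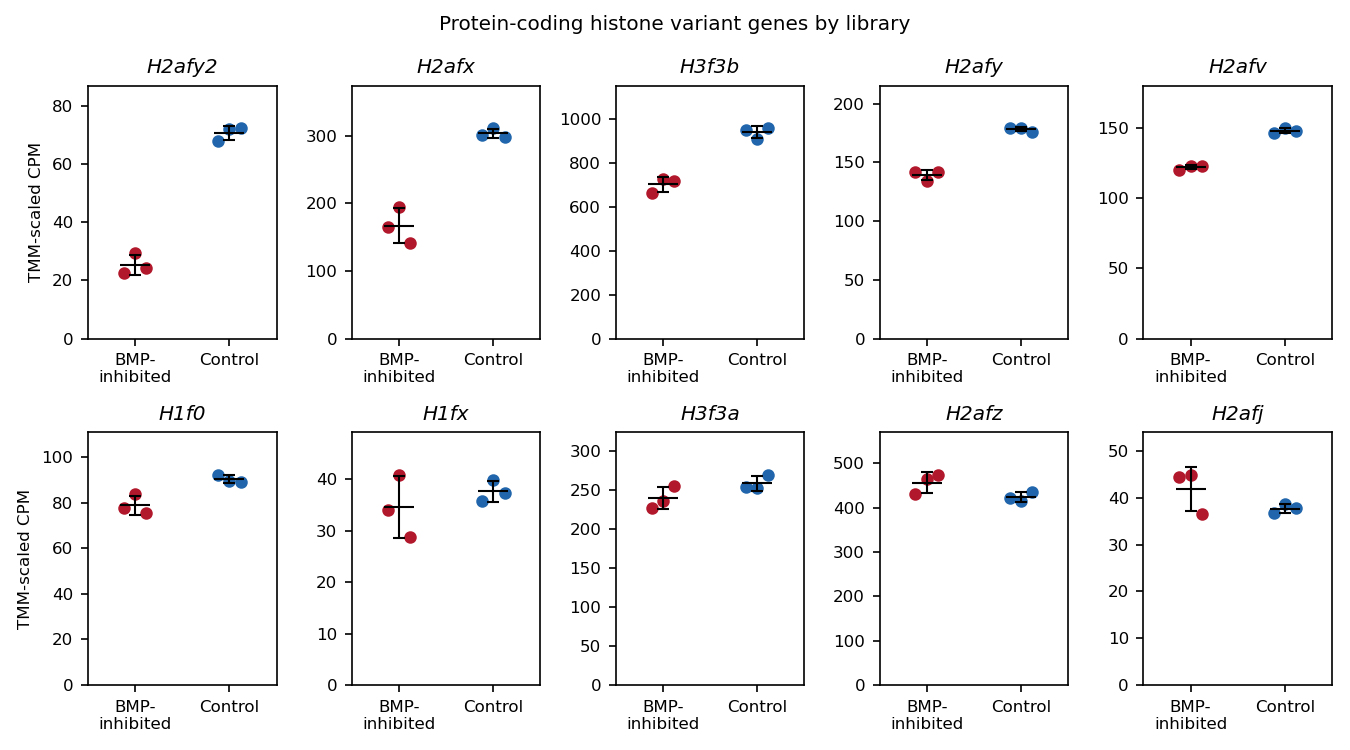
TMM-scaled CPM (vertical axis, each panel from 0) of the 10 protein-coding histone variant genes tested, in BMP-inhibited (red, left) and control (blue, right) libraries. Points are libraries, and horizontal lines with error bars are the mean and SD over 3 libraries. The groups are apart for H2afy2, H2afx, H3f3b, H2afy, H2afv and H1f0 and overlap for H1fx, H3f3a, H2afz and H2afj.

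The largest change among the protein-coding variants was that of H2afy2, which encodes macroH2A2, a variant with a large additional domain that is enriched in silent chromatin. It had 700, 915 and 793 counts in BMP-inhibited libraries, against 2327, 2612 and 2403 in control libraries. Its level was 25.4 ± 3.55 CPM in BMP-inhibited cells and 70.9 ± 2.42 CPM in control cells (SD, n = 3 each), a log2 fold change of -1.48 (SE 0.08, edgeR adjusted p = 3.2e-10). Replicate 2 was the highest of the BMP-inhibited libraries and still lay far below the controls. The gene lies at chr10:61738665-61784147 and overlaps Aifm2 on the other strand. H2afy, which encodes macroH2A1, fell to 139 ± 4.26 CPM in BMP-inhibited cells, against 178 ± 1.66 CPM in control cells, a log2 fold change of -0.35 (SE 0.04). H2afy2 therefore held 13.7%, 17.9% and 14.5% of macroH2A counts in BMP-inhibited libraries, against 27.5%, 28.7% and 29.1% in control libraries (exact permutation test, two-sided p = 0.1). The macroH2A sum was 165 ± 1.08 CPM in BMP-inhibited cells and 249 ± 1.91 CPM in control cells, a log2 difference of -0.60.

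H2afx encodes the variant that is phosphorylated at DNA breaks, and its gene makes both a stem-loop and a polyadenylated mRNA. It had 5116, 6051 and 4658 counts in BMP-inhibited libraries, against 10290, 11295 and 9903 in control libraries. Its level was 167 ± 26.3 CPM in BMP-inhibited cells and 304 ± 6.89 CPM in control cells (SD, n = 3 each), a log2 fold change of -0.86 (SE 0.08, edgeR adjusted p = 1.14e-07). The groups were separate, with BMP-inhibited replicate 2 again nearest to the controls. H2afx lies at chr9:44334694-44336077, is annotated for 822 bases past its stem-loop and overlaps an antisense gene. It is the 1 variant member with a stem-loop.

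H3.3, the replacement form of H3, is encoded as the same protein by H3f3a and H3f3b. H3f3b had 664, 728 and 717 CPM in BMP-inhibited libraries, against 953, 910 and 960 CPM in control libraries, and fell by 0.42 on the log2 scale (SE 0.04, edgeR adjusted p = 5.05e-07). H3f3a had 227, 236 and 255 CPM in BMP-inhibited libraries and 253, 253 and 270 CPM in control libraries. Its groups overlapped and its log2 fold change of -0.11 did not pass (95% interval -0.21 to -0.02 before adjustment, edgeR adjusted p = 0.0555). The H3f3a share of H3.3 counts was 25.5%, 24.5% and 26.2% in BMP-inhibited libraries, against 21.0%, 21.8% and 21.9% in control libraries (exact permutation test, two-sided p = 0.1). Summed, the H3.3 genes had 943 ± 45.0 CPM in BMP-inhibited cells and 1200 ± 34.1 CPM in control cells, a log2 difference of -0.35. The antisense transcript H3f3aos overlaps H3f3a and had 5, 10 and 7 counts in BMP-inhibited libraries, against 29, 22 and 26 in control libraries, a log2 fold change of -1.68 (SE 0.40). Without the strand setting, reads of the sense and antisense transcript cannot be told apart. The processed pseudogenes H3f3a-ps1 and H3f3a-ps2 did not pass, both at -0.15.

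H2A.Z, a variant placed at promoters and enhancers, is encoded by H2afz and H2afv. The pair summed to 578 ± 25.2 CPM in BMP-inhibited cells and 572 ± 10.2 CPM in control cells, and the groups overlapped. H2afv fell to 122 ± 1.67 CPM in BMP-inhibited cells, against 148 ± 1.83 CPM in control cells, a log2 fold change of -0.28 (SE 0.04, edgeR adjusted p = 2.35e-05). H2afz had 430, 465 and 474 CPM in BMP-inhibited libraries and 422, 414 and 436 CPM in control libraries, with overlapping groups. Its log2 fold change of 0.11 (SE 0.04) passed narrowly, with an edgeR adjusted p of 0.0468, and lost the call in 7 of 16 alternative settings. Among these were the leaving out of any control library (0.08 to 0.12) or of BMP-inhibited replicate 2 or 3 (0.09 and 0.08), and scaling by library totals (0.05). The H2afz share of H2A.Z counts was 78.2%, 79.1% and 79.4% in BMP-inhibited libraries, against 74.3%, 73.5% and 74.7% in control libraries (exact permutation test, two-sided p = 0.1).

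**Figure D5:**
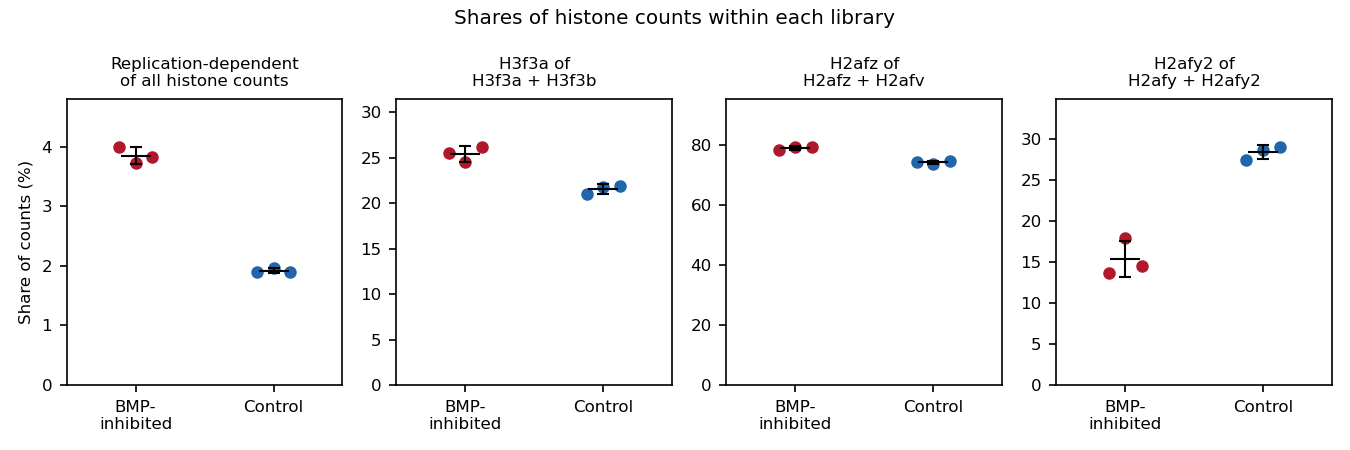
Shares of histone counts in percent (vertical axis, each panel from 0) within each BMP-inhibited (red, left) and control (blue, right) library. Points are libraries, and lines with error bars are the mean and SD over 3 libraries. No panel shows an overlap of the groups, and the H2afy2 share is 13.7% to 17.9% in BMP-inhibited libraries and 27.5% to 29.1% in control libraries.

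The linker variants had small log2 fold changes. H1f0, a linker histone that accumulates in cells that have left the cycle, had 78.8 ± 4.32 CPM in BMP-inhibited cells and 90.4 ± 1.68 CPM in control cells, and fell by 0.20 on the log2 scale (SE 0.05, edgeR adjusted p = 0.00275). H1fx, another linker variant, did not pass at -0.12 (95% interval -0.31 to 0.06). H2afj, a variant of H2A close to the canonical protein, did not pass at 0.15 (edgeR adjusted p = 0.0846). The 8 variant-named genes below the filter included H1foo, the oocyte linker gene, and the H2afb genes of testis, and together they had 28 counts in BMP-inhibited libraries and 37 in control libraries.

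Per kilobase of annotated exon, the level of each of the 10 protein-coding variants tested was above that of every replication-dependent gene in control cells, and in BMP-inhibited cells the same held for all but H2afy2. The variant-named pseudogenes and H3f3aos were below Hist1h4i in both groups. In BMP-inhibited cells the highest were H2afz at 257, H3f3b at 236 and H2afx at 121 CPM per kilobase. In control cells H2afz had 239, H3f3b 316 and H2afx 219 CPM per kilobase, so that H3f3b and H2afz changed places. The highest replication-dependent gene, Hist1h4i, had 13.6 CPM per kilobase in BMP-inhibited cells and 6.38 CPM per kilobase in control cells. The lowest protein-coding variant tested in BMP-inhibited cells was H2afy2, at 11.7 CPM per kilobase. In control cells the lowest was H2afj, at 20.6 CPM per kilobase, and H2afy2 had 32.6 CPM per kilobase there. Poly-T capture selects for the polyadenylated part of the replication-dependent mRNA, and reads with several alignments entered no count. These values therefore do not rank the total mRNA of variant and replication-dependent genes.

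Genes that make the histone mRNA 3′ end or turn the mRNA over had 12 of 20 higher and 4 lower (median log2 fold change 0.21), beside 32.5% higher and 31.7% lower over all genes tested, shares that also stand behind the next lists. The 4 with the smallest p all rose. Ncbp2, a subunit of the nuclear cap-binding complex, had 119 ± 3.51 CPM in BMP-inhibited cells and 66.5 ± 2.90 CPM in control cells, a log2 fold change of 0.83. Srrt, a partner of that complex also known as ARS2, rose by 0.58. Tut7, a uridylyltransferase that tails histone mRNA for decay in human cells, rose by 0.74. Eri1, an exonuclease that trims the stem-loop end, rose by 0.53. Srrt, Tut7 and Ncbp2 overlap other annotated genes.

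The general polyadenylation machinery had 6 of 15 genes higher and 2 lower (median 0.08), a share higher near the 32.5% of all genes. Clp1, Papola and Cpsf1 rose by 0.54, 0.35 and 0.26, and Cstf3, a subunit of the cleavage stimulation factor, fell by 0.63. With library totals in place of TMM factors, 5 genes of that list were lower, and with upper-quartile factors or an offset for GC content and length, 4. Histone chaperones and their partners had 9 of 32 genes higher and 10 lower (median 0.02), near the 32.5% and 31.7% of all genes. The acetyltransferase Hat1, which marks new H4, and the H2A-H2B chaperone Nap1l1 rose by 0.56 and 0.50. Daxx, an H3.3 chaperone, rose by 0.40, and Oip5, which helps load the centromeric H3, fell by 0.59. Genes of DNA synthesis had 10 of 22 higher and 5 lower (median 0.10), beside 32.5% and 31.7%, the 5 becoming 3 without control replicate 1. Rrm1 and Ccne2 rose by 0.53 and 0.71, and Cdk2 and Pola1 fell by 0.44 and 0.49. Among the genes named from these lists, Cpsf1, Oip5, Ccne2 and Cdk2 overlap an annotated antisense gene.

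Markers of other cell types differed between the groups as well, where 32.5% of all genes tested were higher and 31.7% lower. Of 10 trophectoderm markers 8 were tested and 6 rose, and the list summed to 339 to 426 CPM in BMP-inhibited libraries and 179 to 183 CPM in control libraries, with Cdx2 and Elf5 under 1 CPM everywhere. Of 8 endoderm markers 7 were tested, 2 rose and 3 fell, and the list summed to 65.2 to 75.5 CPM in BMP-inhibited libraries and 173 to 182 CPM in control libraries, with Foxa2 and Sox17 under 1 CPM. Of 12 fibroblast markers 8 were tested, 4 rose and 1 fell, and the list summed to 19.6 to 20.4 CPM in BMP-inhibited libraries and 12.6 to 14.4 CPM in control libraries. Col3a1, Acta2 and Lum had 0 counts in control libraries, and 6 of the 12 stayed under 1 CPM in every library. Of 8 embryonic stem cell markers 1 rose and 5 fell, and the list summed to 4153 to 4395 CPM in BMP-inhibited libraries and 4782 to 4957 CPM in control libraries. The part of these differences in the histone results was not tested.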

How the data were processed

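Raw read counts per gene were deposited for each of 6 libraries, per the form of the files, and the labels describe poly-T capture and a strand-marking kit. Build GRCm38.p6 and the tools STAR 2.6.1, HTSeq 0.9.1, cutadapt 1.4.2, CASAVA 1.8.2 and DESeq2 are named in the submitters' processing notes. The annotation release and the strand setting of the counting are not given in the sources used here. The 5 rows naming no gene held 25.6% to 26.4% of reads (16.3% to 17.6% for reads aligned more than once) and were left out.

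Symbols came from GENCODE M21, which matched 53360 of 53465 identifiers. Groups were compared over all 6 libraries with edgeR 4.0.16 (quasi-likelihood F test, TMM scaling, default filter with a minimum count of 10 and total of 15, two-sided, Benjamini-Hochberg over 15951 genes, threshold 0.05). Library totals of 31474666 to 35322844 counts gave the tested replication-dependent genes a median standard error of 0.349. Sums and shares were compared by exact permutation over 20 arrangements. Alternatives were DESeq2 1.42.0, limma-voom (limma 3.58.1), other scalings and filters, thinning, an offset for GC content and length, a replicate block, unique members and leaving out each library. Stem-loops, unique 50-base windows and polyadenylation signals were read from annotated transcripts and promoters from RefSeq, with Python 3.11.15 and R 4.3.3.

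Named genes were all tested variants, the 8 most abundant replication-dependent genes, the 8 largest called changes each way, and 4 genes of each related list by smallest p. Others are given as examples, chosen after their values were seen. Tut7 stands under its M21 symbol for Zcchc6. Members and lists were chosen with earlier results of these data known.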

Additional observations from a re-analysis of the deposited data

How the results depend on the processing

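Of the 28 histone genes called, 19 kept direction and call in all 16 alternatives in which they were tested, and none reversed. The replication-dependent sum stayed between 0.66 (library totals) and 0.72 on the log2 scale, and was 0.68 without Hist1h4i. The variant sum stayed between -0.37 (library totals) and -0.25 (without H3f3b). The count of replication-dependent genes higher was 18 of 45 tested (40%), beside 32.5% of all genes. Among members with at least 50% unique windows it was 11 of 27 tested (40.7%). The count higher became 12 with a filter of 1 CPM in 3 libraries, and 15 to 17 without single libraries. The 1 CPM filter leaves fewer genes to test, so the 12 cannot be set against 18 of 45 as a smaller share. The count lower was 2 and became 1 with the 1 CPM filter, 1 among unique members, and 1 to 2 without single libraries. The count of variants higher was 1 and became 0 with upper-quartile factors, 0 with library totals, and 0 to 1 without single libraries. Polyadenylation genes lower were 2 and became 4 with upper-quartile factors, 5 with library totals and 4 with the GC and length offset. DNA synthesis genes lower numbered 3 to 6 without single libraries. Single genes that changed sign in some setting were 8, none of them called. With library totals Hist1h3e had -0.017 and Hist1h4a -0.0039. Without single libraries the log2 fold changes ranged from -0.15 to 0.094 for Hist1h1d, -0.22 to 0.10 for Hist1h2bn, -0.062 to 0.65 for Hist1h2bp, -0.046 to 0.24 for Hist1h3d, -0.14 to 0.25 for Hist1h3e, -0.19 to 0.29 for Hist1h4a, -0.17 to 0.78 for Hist1h4f and -0.042 to 0.54 for Hist1h4h. The causes of these shifts were not tested. The labels do not say whether replicate numbers pair the libraries. Over all genes tested, deviations of same-numbered libraries had correlations of -0.04, 0.0079 and 0.03, which cannot decide it, since a small shared batch need not show there. With a replicate block 16 replication-dependent genes were higher and 2 lower, and 1 variant was higher and 8 lower. Low counts limit single replication-dependent genes, since 25 of 70 were under the filter.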
